A study of Homo sapiens with 4 samples.

Results

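Receptor tyrosine kinases are membrane proteins that bind a ligand outside the cell and phosphorylate tyrosines inside it, which recruits adaptor proteins and switches on the PI3K-AKT and RAS-ERK pathways. In chronic myeloid leukemia the constitutively active fusion kinase BCR-ABL1 drives these same pathways, and imatinib blocks BCR-ABL1 as well as the receptor kinases KIT, PDGFRA, PDGFRB and DDR1. Described here are the transcripts of 8 such receptors, KIT, IGF1R, INSR, AXL, TYRO3, FGFR1, EPHB4 and DDR1, out of 28482 genes in the table. The set was chosen from measured values, because KIT was lower with imatinib and, with knockdown, IGF1R was lower and AXL higher. These 3 differences are therefore given as descriptions, and no fit of them is support. How they varied with the processing is given further below. INSR, TYRO3, FGFR1, EPHB4 and DDR1 complete the set.

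The cells were K562/G01, a derivative of K562 that is labelled as imatinib-resistant, and K562 is an established chronic myeloid leukemia line that carries BCR-ABL1. All 4 groups had been infected with a lentivirus, and each had 1 library of RNA depleted of ribosomal RNA. The 4 groups were TCF7 knockdown cells given imatinib at 1 µM for 48 hours, TCF7 knockdown cells without imatinib, cells with a scramble hairpin given the same imatinib, and cells with the scramble hairpin without imatinib. TCF7 is a transcription factor of the Wnt pathway. Whether each culture was infected on its own, or came from a clone, is not in the labels, so a lasting difference between the knockdown and the scramble culture cannot be told apart from an effect of TCF7.

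Libraries held 30634832 to 34095585 counts. TCF7 itself stood at 3.69 CPM (counts scaled to the same total in each library) in knockdown cells with imatinib and 2.55 CPM in knockdown cells without, against 10.8 and 10.2 CPM in the matching scramble libraries. All 13 erythroid markers of K562 were detected at 1 CPM or more in every library, with a summed level between 3590 and 3802 CPM. With 1 library per group, the ratio of a pair of libraries stands without a replicate check, and the 95% intervals given are for counting error alone. Knockdown was tested across the pair of imatinib states, and imatinib across knockdown and scramble cells, with edgeR's quasi-likelihood test adjusted over 13296 genes. The fit took the effects of knockdown and imatinib to add up. Its p-values rest on departures from that sum, pooled over genes, and measure no spread between replicate cultures. Of the 13 erythroid markers, 3 rose and 5 fell with imatinib, beside 20.9% of all tested genes called in either direction. DESeq2 called 3 that rose and 3 that fell, where it called 1003 of 13296 genes. Offsets for GC content and length gave 1 that rose and 4 that fell, where 627 of 13255 genes were called. Their median log2 ratio with imatinib was -0.26 in knockdown and 0.07 in scramble cells, beside 0.01 and -0.01 over all tested genes. Whether this bears on KIT was not tested. In bulk RNA, fewer cells that express a gene and less RNA per cell cannot be told apart.

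The stretches of reference sequence upstream of the 3 receptors that define the set are printed because TCF7 belongs to the TCF/LEF family, whose members bind DNA around the letters CTTTG. They are from RefSeq on GRCh38.p14, 5′ to 3′ on the strand of the gene, and end just before the annotated gene start. KIT is shown at chr4:54657707-54657917, IGF1R at chr15:98648289-98648538 and AXL at chr19:41218973-41219202, all on the plus strand, and capitals mark CTTTG read on either strand (CAAAG on the strand shown).
KIT: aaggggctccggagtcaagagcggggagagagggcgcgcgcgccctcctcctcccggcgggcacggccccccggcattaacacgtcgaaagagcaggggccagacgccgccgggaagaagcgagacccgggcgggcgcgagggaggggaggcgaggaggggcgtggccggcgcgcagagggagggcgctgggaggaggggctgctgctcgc
IGF1R: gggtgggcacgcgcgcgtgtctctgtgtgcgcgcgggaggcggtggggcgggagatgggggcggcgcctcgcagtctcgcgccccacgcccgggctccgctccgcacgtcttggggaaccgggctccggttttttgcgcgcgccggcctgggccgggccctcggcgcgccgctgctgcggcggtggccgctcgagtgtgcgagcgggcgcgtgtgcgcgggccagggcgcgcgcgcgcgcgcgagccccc
AXL: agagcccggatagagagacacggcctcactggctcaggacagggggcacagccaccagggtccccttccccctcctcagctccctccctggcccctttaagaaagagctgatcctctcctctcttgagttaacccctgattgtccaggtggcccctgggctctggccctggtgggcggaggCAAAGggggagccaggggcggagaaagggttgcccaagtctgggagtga
In the full 250-base windows before the RefSeq start sites, IGF1R had 0 matches to CTTTG on either strand, the first start site of AXL had 1, shown in capitals, and KIT had 1 at position -16, which lies past the end of the printed stretch. At least 1 match was present in 42.1% of the 35116 windows of the same length. The windows of KIT and IGF1R were rich in G and C, at 76.4% and 81.2%, with 34 and 48 CpG pairs. That of the first start site of AXL had 64.4% and 4, and that of the second 54.4% and 13. A match is a description of letters and not of a binding site.

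KIT is the receptor for stem cell factor, needed by haematopoietic progenitors, mast cells and early erythroid cells. Its gene lies at chr4:54657918-54740715 on the plus strand of GRCh38. KIT had 105 counts (3.31 CPM, 95% Poisson interval 2.71 to 4.004) in knockdown cells with imatinib and 268 counts (8.75 CPM, 7.73 to 9.86) in knockdown cells without. In scramble cells KIT had 156 counts (4.58 CPM, 3.89 to 5.35) with imatinib and 284 counts (8.57 CPM, 7.60 to 9.62) without. Both libraries with imatinib lay below both without, and the lowest of the 4 was that with knockdown and imatinib together. With imatinib, KIT was at 37.7% of the untreated level in knockdown cells (95% interval 29.8 to 47.4) and at 52.8% in scramble cells (43.2 to 64.5), which are the values the set was chosen by.

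The choice used the imatinib ratios of KIT and not its knockdown ratios, though both come from the same libraries. The log2 ratio of knockdown over scramble was -0.44 (-0.82 to -0.08) under imatinib and 0.04 (-0.21 to 0.28) without it. Over both states the knockdown difference did not pass the test (log2 fold change -0.18 ± 0.207, SE, edgeR adjusted p = 0.706). The ratio under imatinib minus that without was -0.48 (-0.93 to -0.04, counting error only). The same value is the imatinib ratio in knockdown cells minus that in scramble cells, so it is not independent of the choice. A difference at least as large in either direction was found in 16.0% of the 13296 tested genes, and the interaction itself was not tested. Knockdown cells with imatinib had 38.7% of the KIT level of scramble cells without imatinib.

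**Figure D1:**
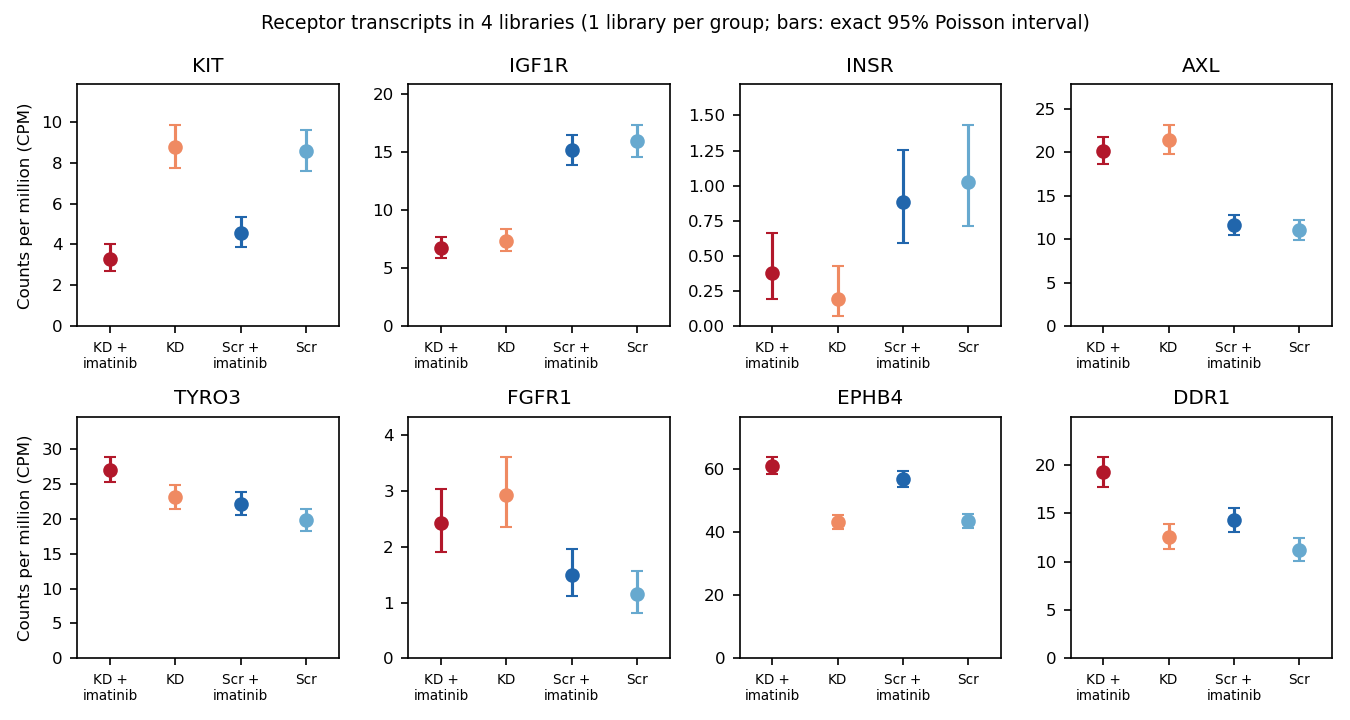
Level (CPM) of each receptor in the 4 libraries, in the order knockdown with imatinib, knockdown, scramble with imatinib and scramble (KD, TCF7 knockdown; Scr, scramble). Points are single libraries and bars their 95% Poisson intervals; KIT separates the libraries with imatinib from those without, at 3.31 and 4.58 against 8.75 and 8.57 CPM, whereas IGF1R and AXL separate knockdown from scramble.

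The ligand of KIT, stem cell factor (KITLG), had 159 and 121 counts in knockdown cells with and without imatinib, against 303 and 240 in the matching scramble cells. KITLG fell with knockdown (log2 fold change -0.84 ± 0.202, SE, edgeR adjusted p = 0.00655), but was not called by DESeq2 (adjusted p = 0.177). Both knockdown libraries lay below both scramble libraries. Of the 12 listed regulators of KIT transcription, all were tested. With imatinib 6 of them rose and 1 fell, against 20.9% of all tested genes called in either direction. With offsets for GC content and length 1 rose and 1 fell, where 627 of 13255 genes were called. LYL1, a relative of TAL1 in blood progenitors, rose with imatinib (log2 fold change 0.72 ± 0.0798, SE, edgeR adjusted p = 1.41e-07) and did so with those offsets too (0.46). LMO2, the bridging factor of the GATA and TAL1 complex, had 831 and 1159 counts in knockdown cells with and without imatinib, against 1563 and 1587 in scramble cells. In the main test it was the 1 member of that list that fell, with imatinib (-0.30 ± 0.105, edgeR adjusted p = 0.0391, DESeq2 adjusted p = 0.181) and with knockdown (-0.56 ± 0.105, edgeR adjusted p = 0.000437, DESeq2 adjusted p = 0.0209). With knockdown 2 regulators rose, GATA2 at 0.29 ± 0.0771 (edgeR adjusted p = 0.0154) and MITF, the mast and pigment cell factor, at 0.29 ± 0.0872 (edgeR adjusted p = 0.0359), beside 7.14% of all tested genes called in either direction. DESeq2 called neither GATA2 nor MITF for knockdown (adjusted p = 0.168 and 0.357). With the offsets 2 regulators rose and 2 fell for knockdown, where 1619 of 13255 genes were called.

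Because KIT also marks mast cells, the markers of mast cells, basophils and eosinophils are given beside it. Their summed level was 107 CPM in knockdown cells with imatinib, 137 in knockdown cells, 64.8 in scramble cells with imatinib and 61.7 in scramble cells, over 8 markers in the table. Of the 6 tested, 4 rose with knockdown (HDC, EPX, CLC and IL1RL1) and 0 fell, beside 7.14% of all tested genes called in either direction. DESeq2 called 3 of them, without CLC, where it called 272 of the 13296 tested genes. EPX, the eosinophil peroxidase, had 1111 and 1601 counts in knockdown cells with and without imatinib, against 558 and 498 in scramble cells. Of the mast cell genes listed, CPA3 was at 0 in 3 libraries and at 4 counts in knockdown cells with imatinib, and FCER1A at 0 in knockdown cells with imatinib and at 5 or 6 counts in the other libraries. The other 6 markers in the table were at 1 CPM or more in every library. The part of these markers in the receptors' differences was not tested.

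IGF1R and INSR are the receptors of insulin-like growth factors and of insulin, close relatives that can pair into hybrid receptors. IGF1R lies at chr15:98648539-98964530 on the plus strand and INSR at chr19:7112255-7294034 on the minus strand. IGF1R had 213 counts (6.71 CPM) and 225 counts (7.34 CPM) in knockdown cells with and without imatinib, against 515 counts (15.1 CPM) and 527 counts (15.9 CPM) in scramble cells. Both knockdown libraries lay below both scramble libraries, and within each culture the Poisson intervals with and without imatinib overlapped. The level in knockdown cells was 45.0% of scramble under imatinib (95% interval 38.2 to 52.9) and 46.5% without (39.6 to 54.4), again values that chose the set. Imatinib, which the choice of IGF1R did not use, gave log2 ratios of -0.13 (-0.41 to 0.14) in knockdown cells and -0.09 (-0.27 to 0.09) in scramble cells, and the joint change did not pass the test (-0.11, edgeR adjusted p = 0.661). The knockdown ratio under imatinib minus that without was -0.04 (-0.38 to 0.29).

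INSR was scarce, with 12 and 6 counts in knockdown cells with and without imatinib, against 30 and 34 counts in scramble cells. It reached 1 CPM in fewer than 2 libraries and so was left out of the main test, and with no filter on low counts it was not called for knockdown (-1.72 ± 0.634, SE, edgeR adjusted p = 0.136) or imatinib (edgeR adjusted p = 0.919). Its log2 ratio of knockdown over scramble was -1.08 (-2.30 to -0.19) under imatinib and -2.07 (-3.92 to -1.11) without, so both counting intervals lay below 0. With imatinib it was 0.77 (-0.58 to 2.64) in knockdown and -0.22 (-0.99 to 0.52) in scramble cells, and no difference was detectable at this depth.

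Of the partners of IGF1R, the ligand IGF1 had 75 and 30 counts in knockdown cells with and without imatinib, against 74 and 62 in scramble cells, and passed neither test (edgeR adjusted p = 0.683 for knockdown and 0.173 for imatinib). IGFBP4, a secreted protein that binds insulin-like growth factors, had 2631 and 2322 counts in knockdown cells with and without imatinib, against 4319 and 4069 in scramble cells. It fell with knockdown (-0.64 ± 0.0765, SE, edgeR adjusted p = 2.17e-07), the 1 of 7 tested co-receptors and binding proteins called for knockdown, beside 7.14% of all tested genes. IGF2R, the scavenger receptor for IGF2, was at 542 and 512 CPM in knockdown cells with and without imatinib, against 602 and 577 CPM in scramble cells, and did not pass the test for knockdown (-0.15, edgeR adjusted p = 0.225).

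AXL and TYRO3 belong with MERTK to the TAM family, receptors for GAS6 and protein S that take part in survival signalling and in clearing dying cells. AXL lies at chr19:41219203-41261766 and TYRO3 at chr15:41557675-41583586, both on the plus strand. AXL had 640 counts (20.2 CPM) and 658 counts (21.5 CPM) in knockdown cells with and without imatinib, against 397 counts (11.6 CPM) and 365 counts (11.0 CPM) in scramble cells. Both knockdown libraries lay above both scramble libraries. The log2 ratio of knockdown over scramble was 0.81 (0.63 to 1.00) under imatinib and 0.97 (0.79 to 1.16) without, values that chose the set. With imatinib, which the choice of AXL did not use, the log2 ratio was -0.10 (-0.25 to 0.06) in knockdown cells and 0.06 (-0.14 to 0.27) in scramble cells, and the joint change did not pass the test (-0.02, edgeR adjusted p = 0.940). With the trend over GC content and length removed, these ratios were -0.31, outside its counting interval, and -0.05. AXL was not called for imatinib with that trend as offsets (edgeR adjusted p = 0.490).

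TYRO3 had 857 and 708 counts in knockdown cells with and without imatinib (27.0 and 23.1 CPM), against 756 and 656 in scramble cells (22.2 and 19.8 CPM). The knockdown libraries were higher within each imatinib state, at log2 ratios of 0.30 (0.16 to 0.45) under imatinib and 0.23 (0.08 to 0.39) without, yet the joint change did not pass the test (0.27 ± 0.117, SE, edgeR adjusted p = 0.184). TYRO3 shares sequence with the pseudogene TYRO3P, which had 112 and 75 counts in knockdown cells against 134 and 134 in scramble cells, so how the authors' counting split reads between them is uncertain. MERTK had 57 and 73 counts in knockdown cells against 48 and 57 in scramble cells. The ligand protein S (PROS1) was at 91.6 and 95.1 CPM in knockdown cells against 94.7 and 97.0 CPM in scramble cells, with an edgeR adjusted p of 0.913 for knockdown. GAS6 had 125 and 65 counts in knockdown cells with and without imatinib, against 175 and 107 in scramble cells. It rose with imatinib (0.76 ± 0.265, edgeR adjusted p = 0.0370) but was not called with offsets for GC content and length (edgeR adjusted p = 0.568).

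FGFR1, a receptor for fibroblast growth factors, lies at chr8:38400215-38468834 on the minus strand. It had 77 counts (2.43 CPM, 1.91 to 3.03) and 90 counts (2.94 CPM, 2.36 to 3.61) in knockdown cells with and without imatinib, against 51 counts (1.496 CPM, 1.11 to 1.97) and 38 counts (1.15 CPM, 0.811 to 1.57) in scramble cells. The knockdown libraries lay above the scramble libraries, with log2 ratios of 0.69 (0.19 to 1.26) under imatinib and 1.32 (0.80 to 1.95) without. FGFR1 did not pass the test for knockdown (1.03 ± 0.350, SE, edgeR adjusted p = 0.0687), but did with no filter on low counts (edgeR adjusted p = 0.0464) and with offsets for GC content and length (edgeR adjusted p = 0.0318). DESeq2 gave an adjusted p of 0.589. The gene overlaps LETM2 on the opposite strand, which had 97 and 99 counts in knockdown cells with and without imatinib, against 149 and 126 in scramble cells. The strand setting of the counting is not given in the sources used here, so the share of reads between them is uncertain. Among the ligands, FGF2 had 55 and 136 counts in knockdown cells with and without imatinib, against 115 and 156 in scramble cells. FGF2 fell with imatinib (-0.90 ± 0.278, edgeR adjusted p = 0.0195), which was not called with the offsets (edgeR adjusted p = 0.105). Over the 10 tested ligands of the set, 1 rose and 2 fell with knockdown, beside 7.14% of all tested genes. DESeq2 called 0, where it called 272 of 13296 genes. With the offsets 2 rose and 3 fell for knockdown, where 1619 of 13255 genes were called. In the main test FGF5, another fibroblast growth factor, was 1 of the 2 that fell (-0.71 ± 0.216, SE, edgeR adjusted p = 0.0359), beside KITLG.

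EPHB4 is the receptor of ephrin-B2 and DDR1 a receptor for collagen that imatinib is known to bind. The collagen gene COL1A1, a ligand of DDR1, was scarce, with 32 and 42 counts in knockdown cells with and without imatinib, against 7 and 5 in scramble cells. It was the ligand that rose with knockdown in the main test (2.71 ± 0.562, SE, edgeR adjusted p = 0.00143), and DESeq2 did not call it (adjusted p = 0.138). EPHB4 lies at chr7:100802565-100827521 on the minus strand and DDR1 at chr6:30876421-30900156 on the plus strand. EPHB4 had 1938 counts (61.0 CPM) and 1323 counts (43.2 CPM) in knockdown cells with and without imatinib, against 1936 counts (56.8 CPM) and 1445 counts (43.6 CPM) in scramble cells. It overlaps SLC12A9 on the opposite strand, which had 251 and 152 counts in knockdown cells with and without imatinib, against 215 and 168 in scramble cells. As the strand setting is not given, the share of reads between EPHB4 and SLC12A9 is uncertain. DDR1 had 610 counts (19.2 CPM) and 384 counts (12.5 CPM) in knockdown cells with and without imatinib, against 486 counts (14.3 CPM) and 371 counts (11.2 CPM) in scramble cells. Both receptors had higher values in the libraries with imatinib than in those without, though the Poisson intervals of DDR1 in scramble cells with imatinib (13.0 to 15.6 CPM) and in knockdown cells without (11.3 to 13.9 CPM) overlapped. EPHB4 rose with imatinib (0.43 ± 0.0906, SE, edgeR adjusted p = 0.000832), at log2 ratios of 0.49 (0.39 to 0.60) in knockdown and 0.37 (0.27 to 0.47) in scramble cells. DDR1 rose too (0.47 ± 0.144, SE, edgeR adjusted p = 0.0172), at 0.61 (0.43 to 0.80) in knockdown and 0.33 (0.14 to 0.53) in scramble cells, and was not called by DESeq2 (adjusted p = 0.141). Neither passed the test for knockdown (edgeR adjusted p = 0.787 for EPHB4 and 0.209 for DDR1).

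The ratio of imatinib over none moved with the GC content of transcripts. Across 10095 genes, Spearman's correlation between GC content of the longest transcript and the log2 ratio was 0.75 in knockdown and 0.68 in scramble cells. For the ratio of knockdown over scramble it was 0.37 under imatinib and -0.11 without. Genes are not independent replicates, and all share the same libraries. EPHB4 and DDR1 are the receptors richest in GC, at 60.8% and 61.6%, and KIT the poorest, at 42.6%. For the 939 genes at 60 to 65% GC, the median log2 ratio was 0.54 in knockdown and 0.31 in scramble cells, beside 0.49 and 0.37 for EPHB4. With the smooth trend over GC content and length removed, EPHB4 was at -0.00262 in knockdown and 0.08 in scramble cells, and DDR1 at 0.08 in knockdown and 0.02 in scramble cells. With the trend entered as offsets, neither was called (edgeR adjusted p = 0.863 for EPHB4 and 0.906 for DDR1). The same removal left KIT at -1.26 in knockdown and -0.81 in scramble cells, and IGF1R at -1.15 under imatinib and -1.03 without it for knockdown over scramble.

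**Figure D2:**
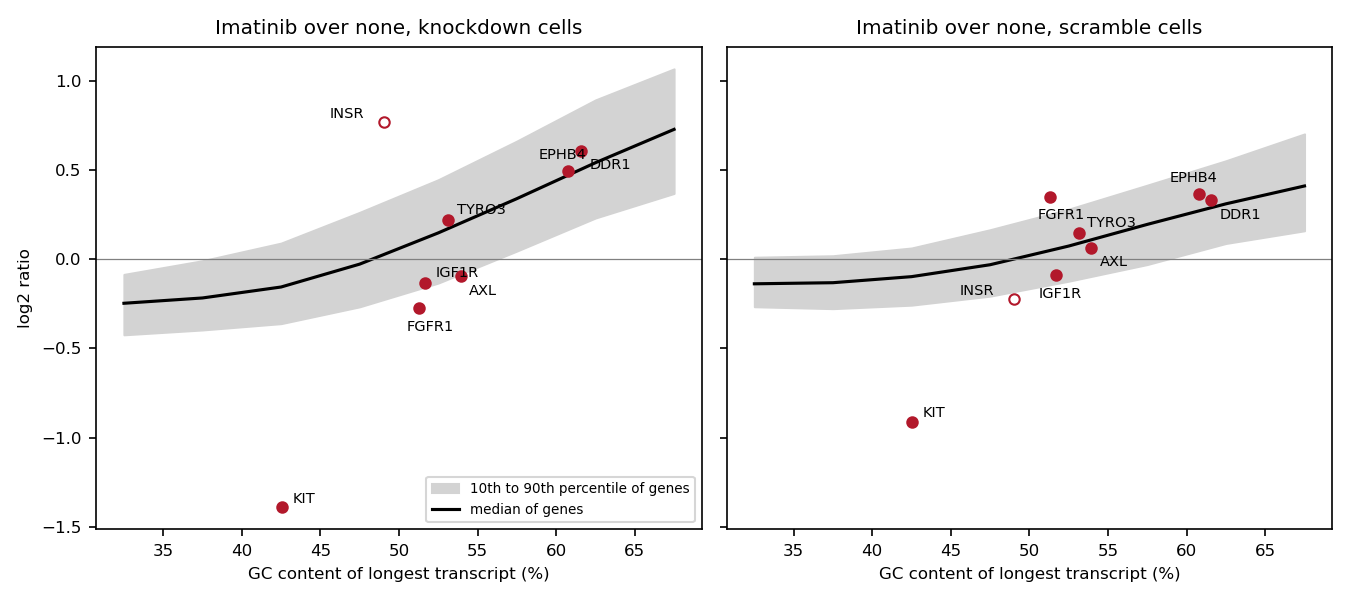
Log2 ratio of imatinib over none (vertical axis) against GC content of the longest transcript (horizontal axis, percent) in knockdown cells (left) and scramble cells (right). The line is the median and the grey band the 10th to 90th percentile of genes per bin of GC content, and the open circle is INSR, which was left out of the main test; EPHB4 and DDR1 lie inside the band and KIT, at -1.39 and -0.91, far below it.

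Counted over the set, 7 of the 8 receptors passed the filter. Leaving out IGF1R and AXL, whose knockdown differences chose the set, 0 of the other 5 were called for knockdown, where 7.14% of all tested genes were called. Leaving out KIT in the same way, 2 of the other 6 were called for imatinib, EPHB4 and DDR1, against a background of 20.9%. Past 2-fold, IGF1R was lower with knockdown in both imatinib states and KIT lower with imatinib in knockdown cells. These values chose the set, so they are not set against a background. Without a test, FGFR1 was higher by 2-fold or more with knockdown in the absence of imatinib, where 2.68% of tested genes passed that fold. Under imatinib no other tested receptor was past 2-fold for knockdown, with a background of 2.83%. For imatinib no other tested receptor was past 2-fold in knockdown cells, with a background of 3.71%. In scramble cells 0 of the 7 were, with a background of 1.31%.

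**Figure D3:**
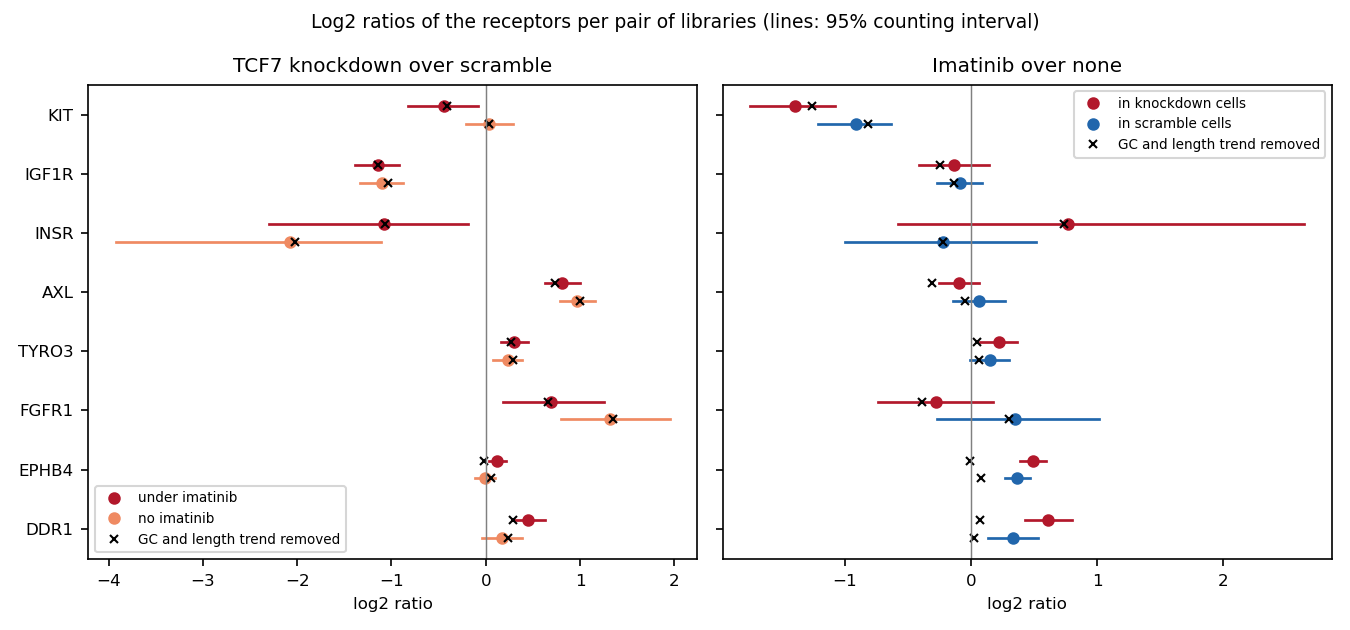
Log2 ratio of each receptor for knockdown over scramble (left, under and without imatinib) and for imatinib over none (right, in knockdown and in scramble cells). Points are ratios of 1 library to another, lines the 95% counting intervals, and crosses the ratio with the GC and length trend removed; IGF1R lies near -1.1 and AXL at 0.81 and 0.97 in both states of the left panel, and the crosses of EPHB4 and DDR1 lie near 0 on the right.

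Within the set the difference between the knockdown ratio under imatinib and without it was 0.28 (0.00405 to 0.55) for DDR1, -0.63 (-1.45 to 0.15) for FGFR1, -0.16 (-0.42 to 0.10) for AXL, 0.07 (-0.14 to 0.28) for TYRO3 and 0.13 (-0.01 to 0.27) for EPHB4. With KIT, DDR1 was the other receptor whose counting interval left out 0. For DDR1 31.8% of tested genes had a difference at least as large, and with the GC and length trend removed its value was 0.05. The difference of EPHB4 was -0.08 with that trend removed.

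The wider family held 58 listed receptor tyrosine kinases, 54 of them in the table and 22 tested. Of the 15 tested that are not in the set, 5 rose with imatinib and 0 fell, beside 20.9% of all tested genes called in either direction, and EPHB6, FGFR3, ROR2 and ERBB2 were among those that rose. With offsets for GC content and length 0 of the 15 were called for imatinib, where 627 of 13255 genes were called. With knockdown 1 of the 15 rose, EPHB6, an Eph receptor without kinase activity, at 0.25 ± 0.0736 (edgeR adjusted p = 0.0294), and 1 fell, FGFR4, at -0.63 ± 0.183 (edgeR adjusted p = 0.0273), beside 7.14% of all tested genes. DESeq2 called neither (adjusted p = 0.244 for EPHB6 and 0.398 for FGFR4). With the offsets 1 of the 15 rose and 3 fell for knockdown, where 1619 of 13255 genes were called. The median log2 ratio over the 22 was 0.14 under imatinib and -0.01 without for knockdown, and 0.16 in knockdown and 0.24 in scramble cells for imatinib, beside medians between -0.01 and 0.02 over all tested genes. The 32 listed receptors in the table that were not tested had at most 34 counts in a library. On the authors' length-scaled values (deposited FPKM), EPHB4 was the 4th of the family in each library, at 9.49 and 6.71 in knockdown cells with and without imatinib and 8.82 and 6.77 in scramble cells. KIT ranked 15th and 10th in knockdown cells with and without imatinib and 14th and 11th in scramble cells. AXL ranked 8th and 6th in knockdown cells against 9th and 8th in scramble cells, and IGF1R 16th and 15th against 12th and 13th.

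**Figure D4:**
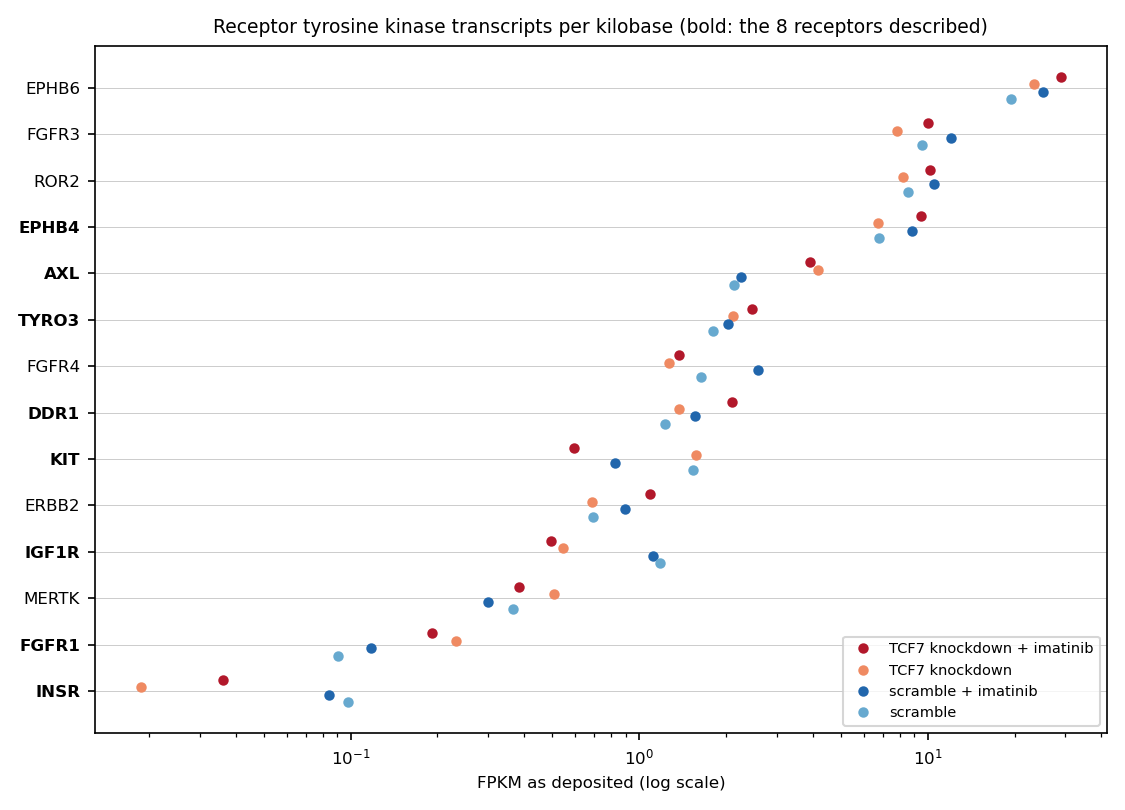
Deposited FPKM, on a log axis, of the 8 receptors (names in bold) and of 6 other receptor tyrosine kinases named in the text, in the 4 libraries, ordered by level; each point is 1 library. EPHB4 is the 4th highest of the family in each library, and INSR and FGFR1 are the lowest shown.

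Downstream of the receptors, 26 of 33 listed adaptors were tested. With knockdown 1 rose and 2 fell, beside 7.14% of all tested genes called. DESeq2 called 1 of these 3, SH2B3, where it called 272 of 13296 genes. With offsets for GC content and length 1 adaptor rose and 4 fell for knockdown, where 1619 of 13255 genes were called. FRS3, a docking protein of FGF and neurotrophin receptors, had 130 and 93 counts in knockdown cells with and without imatinib, against 65 and 41 in scramble cells, and rose (1.21 ± 0.318, SE, edgeR adjusted p = 0.0138). SH2B3 (LNK), which restrains KIT and cytokine receptor signalling, fell (-0.33 ± 0.0724, SE, edgeR adjusted p = 0.00253), as did VAV2, a guanine nucleotide exchange factor (-1.14 ± 0.290, edgeR adjusted p = 0.0100). With imatinib 4 adaptors rose and 2 fell, GAB1 and SOS1, a share near the 20.9% of all tested genes. With the offsets 0 rose and 1 fell for imatinib, where 627 of 13255 genes were called. Of 15 tested genes that shed, dephosphorylate or degrade receptors, 1 rose and 2 fell with knockdown, beside 7.14% of all tested genes. DESeq2 called 0 of the 15, where it called 272 of 13296 genes. With the offsets 2 rose and 2 fell for knockdown, where 1619 of 13255 genes were called. The 2 that fell in the main test were the proteases ADAM10 (-0.30 ± 0.0721, edgeR adjusted p = 0.00705) and ADAM17 (-0.27 ± 0.0771, edgeR adjusted p = 0.0272), which shed many receptors from the cell surface. Of the 8 listed kinases that imatinib binds, 5 were tested. ABL1 rose with imatinib (0.33 ± 0.0709, edgeR adjusted p = 0.000913), a count that cannot be told apart from BCR-ABL1 reads, and was not called with the offsets (edgeR adjusted p = 0.906). PDGFRB had 14 and 22 counts in knockdown cells with and without imatinib against 9 and 11 in scramble cells.

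Genes were also ranked by how close their pattern over the 4 libraries came to that of KIT, IGF1R and AXL, by the root mean square distance in centred log2 CPM over 9368 protein-coding genes. For IGF1R the nearest were SLC1A4, ALDOC, ITGB4, JAG1 and EPPK1, at distances of 0.0232 to 0.0419, beside 0.564 for the size of the IGF1R pattern itself. For AXL they were RUNX2, PARP9, DLK1, PAIP1 and AMHR2, at 0.0729 to 0.101 beside 0.446. For KIT the nearest were SC5D, TAS2R30, SRGN, DNAJB9 and SYT1, at 0.257 to 0.290 beside 0.596, a larger share of the pattern's size than for IGF1R or AXL. The 20 tested genes nearest to KIT on chromosome 4 had a median log2 ratio with imatinib of -0.17 in knockdown and -0.09 in scramble cells. With imatinib 0 of them rose and 2 fell, beside 20.9% of all tested genes called in either direction. The 20 nearest to EPHB4 had medians of 0.58 in knockdown and 0.33 in scramble cells. Of these, 11 rose and 0 fell with imatinib, against the same 20.9%, and their median GC content was 60.7%. The 20 nearest to IGF1R had medians for knockdown of -0.08 under imatinib and -0.02 without.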

How the data were processed

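The authors deposited 1 table of 28482 genes that holds counts and FPKM for each library, per the file headers, and log2 columns that were not used. In the deposited FPKM 6 genes are negative, so it was handled as a score. The submitters' processing notes name FastQC, HISAT2, HTSeq 0.6.1 and GRCh38, while annotation release and strand setting are not given in the sources. Tests kept the 13296 genes that reached 1 CPM in 2 or more libraries. edgeR 4.0.16 (R 4.3.3, TMM) fitted knockdown and imatinib as additive terms over all 4 libraries, with Benjamini-Hochberg adjustment and calls under 0.05, which leaves 1 residual degree of freedom beside 33.7 prior ones. Ratios used a prior count of 2. The script was tested on simulated data. Alternatives were other scalings and filters, DESeq2 1.42.0, limma 3.58.1 on log2 of deposited FPKM plus 0.1, no term for the other factor, each library left out, and offsets for a smooth trend over GC content and length (mgcv 1.9.3, GENCODE annotation, 13255 genes). Intervals cover counting error only, as reads are not independent molecules. The members and lists were chosen with earlier results of these data known. Named genes are TCF7, the 8 receptors, receptors with a mean CPM of 1 or more, called or else most changed genes of each list, the 5 genes most like KIT, IGF1R and AXL in pattern, and overlapping genes. IGF1, IGF2R, PROS1, PDGFRB, AKT1 and TYRO3P were named after their values were seen. A few of the named genes are not reported here.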

Additional observations from a re-analysis of the deposited data

Results flagged for a closer look

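For 5 receptors the libraries of one state lay on the other side of 0 from those of the other state, and the difference was not tested for any of them. The log2 ratio of knockdown over scramble under imatinib minus that without imatinib was -0.48 for KIT and 0.13 for EPHB4. With the GC and length trend removed these values were -0.44 and -0.08. The log2 ratio of imatinib over none in knockdown cells minus that in scramble cells was -0.63 for FGFR1, -0.16 for AXL and 0.99 for INSR. For KIT the counting interval of the difference left out 0, and for the other 4 it included 0.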

How the results depend on the processing

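No paired analysis was possible because no replicate number links the libraries, with 1 per group; the additive fit itself compares within imatinib states and within cultures. The count of genes called for knockdown, 949 in the additive edgeR fit, was 1619 with offsets for GC content and length, 272 with DESeq2, 195 with limma on deposited FPKM and 0 with no term for imatinib (818 at an unadjusted p under 0.05). For imatinib, 2780 genes were called, against 627 with the offsets, 1003 with DESeq2, 1094 with limma and 0 with no term for knockdown (2651 at an unadjusted p under 0.05). Leaving out 1 library, also without the other term, gave 34 to 759 genes for knockdown (omitting scramble gave 34, knockdown 759, scramble with imatinib 49, knockdown with imatinib 242) and 0 to 579 for imatinib (579 on omitting scramble with imatinib, 0 on omitting each other library); the lone library of an arm is then assumed to vary like the others. At 1.5-fold in place of 2-fold, 1324 genes passed for knockdown under imatinib and 1220 without, 2052 for imatinib in knockdown and 900 in scramble cells.

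In the fits with a library left out, the arms hold unequal shares of the other treatment, so each value carries both treatments by construction. For knockdown, KIT was at 0.42 without the scramble library and 0.44 without the knockdown library with imatinib, and EPHB4 at -0.10 and -0.19. For imatinib, IGF1R was at 0.55 and 0.37 and FGFR1 at -0.60 and -0.46 without the same libraries, and AXL at 0.53 without the knockdown library and 0.31 without the scramble library with imatinib. FGFR1 was at -0.0748 with the offsets and at -0.0655 with no term for knockdown. EPHB4 with the GC and length trend removed was at -0.0215 for knockdown under imatinib and -0.00262 for imatinib in knockdown cells. The cause was not tested for these values of FGFR1 and EPHB4. For imatinib, EPHB4 and DDR1 were called in none of the 4 fits with a library left out, with edgeR adjusted p between 0.0568 and 0.419 for EPHB4 and between 0.0697 and 0.666 for DDR1. The differences that chose the set kept their direction in these 4 fits, at -1.39 to -0.93 for KIT with imatinib, and for knockdown -1.21 to -1.05 for IGF1R and 0.83 to 0.95 for AXL. As these 3 differences chose the set, their direction and size in these fits are no support. All 3 missed the threshold in some of these fits and with no term for the other factor. IGF1R also missed it with limma (adjusted p = 0.0667). DESeq2 gave no adjusted p for KIT with imatinib. The depth limits INSR and FGFR1 most.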

Other observations

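Further along the pathways of the receptors, the FOXO transcription factors and their targets, which PI3K-AKT signalling holds down, had 12 of 14 listed genes tested. With knockdown 4 rose and 0 fell, against 7.14% of all tested genes called in either direction. DESeq2 called 1, where it called 272 of 13296 genes. FOXO4 had 712 and 586 counts in knockdown cells with and without imatinib, against 481 and 396 in scramble cells (log2 fold change 0.69 ± 0.133, SE, edgeR adjusted p = 0.000625). The others were CCNG2 at 0.71, TXNIP at 0.32 and CITED2 at 0.26. With offsets for GC content and length 5 of the 12 rose and 1 fell for knockdown, where 1619 of 13255 genes were called. With imatinib SESN3, a stress-induced regulator of mTORC1, fell (-0.57 ± 0.121, edgeR adjusted p = 0.000968), also with offsets for GC content and length.

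Of 23 tested genes of the PI3K-AKT-mTOR pathway, 1 rose and 2 fell with knockdown, beside 7.14% of all tested genes called. DESeq2 called 0, where it called 272 of 13296 genes. PIK3CG, a catalytic subunit of PI3K, rose (0.31 ± 0.0978, SE, edgeR adjusted p = 0.0439), and PHLPP2, a phosphatase that acts on AKT, was among those that fell (-0.49 ± 0.140, SE, edgeR adjusted p = 0.0270). AKT1 did not pass the test for knockdown (0.20, edgeR adjusted p = 0.139). With imatinib 6 rose and 3 fell, beside 20.9% of all tested genes called in either direction. RICTOR, a subunit of mTORC2, was among those that fell, at -0.32. With the offsets 1 rose and 0 fell, where 627 of 13255 genes were called for imatinib. Of 17 tested genes of the RAS-ERK cascade, 0 rose and 1 fell with knockdown, beside the same 7.14%. The 1 was SPRED1, an inhibitor of RAS activation (-0.38 ± 0.0925, edgeR adjusted p = 0.00655, DESeq2 adjusted p = 0.129). With the offsets 1 rose and 3 fell for knockdown, where 1619 of 13255 genes were called.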
